A study of Mus musculus with 1 sample.

Results

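Transcripts of 10 genes that serve early B cell development were followed through single bone marrow cells. These genes, of 32285 in the count matrix, were the recombination genes Rag1, Rag2 and Dntt, the transcription factors Ebf1 and Pax5, the surrogate light chain genes Vpreb1, Vpreb3 and Igll1, and the receptor chain genes Cd79a and Cd79b. They were chosen by name, and all 10 were found in the matrix. Detection was described among cells with a UMI of Dntt, of Flt3 or of Cd79a, where a UMI (unique molecular identifier) marks 1 captured transcript molecule. The cells were lineage- Kit+ bone marrow cells, which include the stem cells of the blood and their early progeny, from C57BL/6 mice with floxed Brd9 alleles (Brd9 fl/fl) and, per the study's methods, no Cre. The mice had received polyinosinic-polycytidylic acid (pIpC), which induces interferon, in 3 doses of 20 mg/kg every other day, and cells were taken 8 weeks later. The sample's labels describe CD45.2+ donor marrow in CD45.1+ recipients treated 4 weeks after transplantation, whereas the series text describes primary mice treated 4 weeks after birth and the study elsewhere treats primary mice at a later age, so the host and age of these cells were not settled. The labels also name a bulk RNA kit, but the deposited files have the form of a 10x single-cell library.

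In a developing B cell, the RAG1 and RAG2 proteins cut immunoglobulin gene segments, and terminal transferase, the product of Dntt, adds bases to the cut ends before they are joined. EBF1 and PAX5 switch on the B lineage programme, with PAX5 acting after EBF1. The heavy chain made in this way is tested at the cell surface with the surrogate light chain, made of the Vpreb1 and Igll1 products, and signals through the CD79A and CD79B pair. Flt3 encodes a cytokine receptor of early progenitors with lymphoid potential, and Il7r the interleukin 7 receptor that early B cells depend on.

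The data were 1 library with no replicates, so no test was run and every interval is an exact 95% interval that covers counting error only. The study's cell filter kept 7645 of 8817 barcodes, with 1592 to 49991 UMIs per cell and a median of 18696. Scrublet called 265 of these cells (3.47%) doublets, and they were kept. Cells of 1 library share their mice, sort and preparation, and are not replicates of a condition.

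Because several of these genes were found in the same few cells, the promoters of 3 of them are shown, for Dntt and Cd79a, whose detection sorts the cells below, and for Rag1, which was found almost only with Dntt. Sequences are from RefSeq on GRCm38.p6, from 250 bases before to 50 bases after the transcript start and 5′ to 3′ along the gene, with E-box letters (CANNTG) in capitals.
Dntt, chr19:41029025-41029324, plus strand: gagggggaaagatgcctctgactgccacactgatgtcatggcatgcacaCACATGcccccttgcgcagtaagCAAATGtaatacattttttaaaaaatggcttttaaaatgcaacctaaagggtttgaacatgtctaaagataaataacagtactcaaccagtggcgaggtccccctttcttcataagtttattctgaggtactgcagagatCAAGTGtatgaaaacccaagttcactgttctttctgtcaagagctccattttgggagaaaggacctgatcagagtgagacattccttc
Rag1, chr2:101649483-101649782, minus strand: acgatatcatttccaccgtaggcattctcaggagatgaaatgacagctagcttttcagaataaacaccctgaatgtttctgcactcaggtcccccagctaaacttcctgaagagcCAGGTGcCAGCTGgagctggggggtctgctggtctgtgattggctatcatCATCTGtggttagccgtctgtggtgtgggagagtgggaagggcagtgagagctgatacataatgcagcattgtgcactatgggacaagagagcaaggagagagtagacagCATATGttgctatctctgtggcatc
Cd79a, chr7:24897247-24897546, plus strand: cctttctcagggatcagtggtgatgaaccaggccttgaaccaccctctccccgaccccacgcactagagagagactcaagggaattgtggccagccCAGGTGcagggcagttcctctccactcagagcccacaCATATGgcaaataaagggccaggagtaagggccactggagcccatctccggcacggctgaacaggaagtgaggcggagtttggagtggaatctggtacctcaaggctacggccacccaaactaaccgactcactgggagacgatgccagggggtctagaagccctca
An E-box is the kind of short motif that E2A proteins such as the Tcf3 product bind. CANNTG was found in 9 of 10 promoter entries, which stood for 9 of the 10 genes, and in 72.3% of all 32851 promoters of the same length. The 10-letter EBF1 palindrome was found in 0 of these 10 and in 0.904% of all promoters. Both motifs read the same on either strand, and their letters do not allow a match of one to overlap a match of the other. A match is a description of the letters and not of binding.

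The recombination genes differed in how closely they kept to Dntt-positive cells. Dntt (GRCm38 chromosome 19, 41029275 to 41059525, plus strand) had 4681 UMIs in 439 cells (5.74%, interval 5.23 to 6.29), with 1 to 80 UMIs and a median of 3 per positive cell. Rag1 (chromosome 2, 101638282 to 101649501, minus strand) had 162 UMIs in 44 cells, of which 42 were also Dntt-positive. Those cells carried 98.8% of all Rag1 UMIs, and no cell outside them had more than 1. Rag2 (chromosome 2, 101624718 to 101632529, plus strand), the neighbour of Rag1 and its obligate partner in cutting, had 118 UMIs in 102 cells, and 49 of these cells lacked Dntt. Of the Rag2-positive cells, 89.2% held a single UMI. Within Dntt-positive cells, 17 had both Rag genes, 25 had Rag1 alone and 36 had Rag2 alone. The exons of Rag1 share 80 of 6608 bases with B230118H07Rik on the same strand, so reads there could be lost or split.

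The transcription factors were rarer. Ebf1 (chromosome 11, 44617317 to 45008091, plus strand) had 308 UMIs in 47 cells, and 92.9% of the UMIs lay in Dntt-positive cells. Pax5 (chromosome 4, 44524757 to 44710487, minus strand) had 34 UMIs in 12 cells, and 11 of these cells were Dntt-positive. Every Pax5-positive cell had Ebf1, whereas 35 Ebf1-positive cells had no Pax5.

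Of the surrogate light chain genes, Vpreb3 (chromosome 10, 75943057 to 75949657, plus strand), whose protein assists receptor assembly inside the cell, had 255 UMIs in 40 cells, with 83.1% of the UMIs in Dntt-positive cells. Vpreb1 (chromosome 16, 16868403 to 16870843, minus strand) had 513 UMIs in 337 cells, but 285 of these cells lacked Dntt and 85.8% of the positive cells held 1 UMI. Igll1 (chromosome 16, 16860671 to 16863985, minus strand) had 133 UMIs in 61 cells, of which 53 lacked Dntt. Vpreb1 and Igll1 lie next to each other and their products pair, yet only 12 cells held a UMI of both, and 8 of these were Dntt-positive. Among Dntt-positive cells, all 8 with Igll1 also had Vpreb1. Vpreb1 counts are uncertain, since its transcript was 97.4% identical to that of Vpreb2 over their alignment and 18.8% of its 50-base windows were shared.

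The receptor chain genes had unlike patterns. Cd79a (chromosome 7, 24897381 to 24902197, plus strand) had 285 UMIs in 62 cells, with 51.9% of the UMIs in Dntt-positive cells. Cd79b (chromosome 11, 106311341 to 106314762, minus strand) had 4499 UMIs in 2983 cells (39.0%), and only 7.25% of its UMIs lay in Dntt-positive cells. Of the 62 Cd79a-positive cells 43 also had Cd79b.

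Free RNA in droplets can give stray UMIs, so erythroid-like cells, which should lack these genes, served as a measure of background. After each cell was thinned to 5000 UMIs, 0.267% of erythroid-like cells had a Dntt UMI, 0.0891% a Cd79a UMI, and none a Rag1, Rag2 or Igll1 UMI. Ebf1 was then found in 0.267% of erythroid-like cells and in 0.437% of all cells, so a single Ebf1 UMI can be a stray one. Without thinning, Igll1 was in 0 and Rag2 in 0.0890% of erythroid-like cells, against 0.798% and 1.33% of all cells. Before thinning 1.60% of erythroid-like cells had Dntt and 3.38% had Vpreb1, in cells deeper (median 33465.5 UMIs) than the library as a whole (18696). The latter stood near the 4.41% of all cells with Vpreb1, at unequal depth. At 5000 UMIs the shares with Vpreb1 were 0.535% of erythroid-like cells and 1.41% of all cells. A single UMI cannot be told from a stray one, so cells with 1 Vpreb1 UMI are not read as expressing it.

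How detection of one gene related to detection of another was measured for every ordered pair. Of 439 Dntt-positive cells, 358 had Flt3 (81.5%, interval 77.6 to 85.1), 93 had Il7r, 42 had Rag1, 39 had Ebf1, 27 had Cd79a (6.15%, interval 4.09 to 8.82) and 11 had Pax5. Read the other way, 95.5% of Rag1-positive, 83.0% of Ebf1-positive, 43.5% of Cd79a-positive (interval 31.0 to 56.7) and 22.6% of Flt3-positive cells (interval 20.5 to 24.7) had Dntt. Of the 1587 Flt3-positive cells, 25 had Cd79a (1.58%, interval 1.02 to 2.32), and of those 25 all but 2 had Dntt. In erythroid-like cells at 5000 UMIs Dntt was seen in 0.267%, as given above, against 24.6% of Flt3-positive cells at that depth. The 2 shares of a pair have the same numerator, so their ratio is that of the 2 genes' cell counts and gives no order in time.

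**Figure D1:**
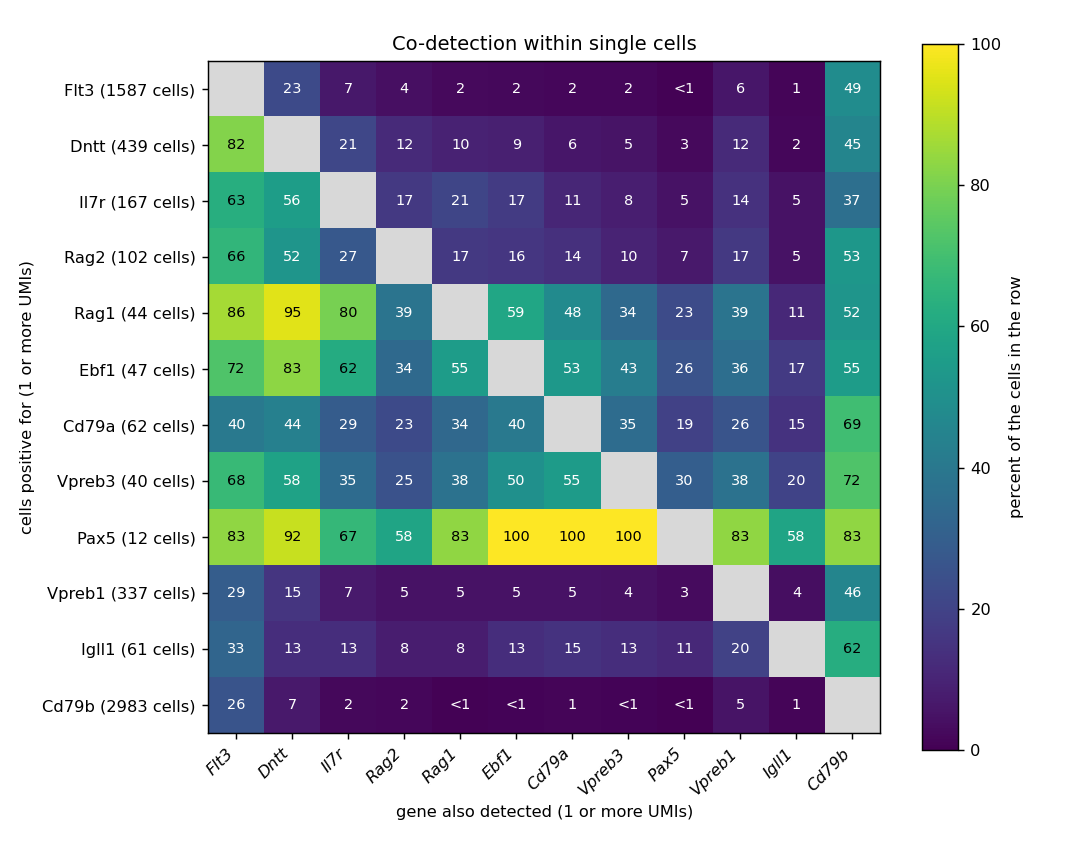
Percent of cells positive for the gene of a row (number of cells in brackets) that also had a UMI of the gene of a column, before thinning; grey squares are a gene with itself. The Pax5 row is high throughout, with 100% for Ebf1, Cd79a and Vpreb3. The Vpreb1 row is highest for Cd79b (45.7%) and Flt3 (29.4%), and the Cd79b row for Flt3 (25.9%), with lower values for the other genes.

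The 8 combinations of Flt3, Dntt and Cd79a were filled unevenly. No UMI of the 3 was found in 5944 cells, 1227 cells had Flt3 alone, 335 had Flt3 and Dntt, and 23 had all 3. Dntt alone was found in 77 cells and Cd79a alone in 33. Only 4 cells had Dntt and Cd79a without Flt3, and 2 had Flt3 and Cd79a without Dntt.

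In the 23 triple-positive cells the remaining early B genes stood far above their level in the 335 cells with Flt3 and Dntt only. Levels are summed UMIs of a group per 1000000 UMIs (CPM). Rag1 was at 278 CPM against 7.65, Ebf1 at 635 against 7.65, Vpreb3 at 526.7 against 0.651, and Il7r at 190.2 against 41.0. Pax5 was at 76.1 CPM against 0 UMIs. Kit, the receptor used in the sort, was at 46.8 CPM (interval 26.8 to 76.0) against 93.6 (interval 86.1 to 101.5), while Flt3 itself was at 225.3 and 208.8 CPM with overlapping intervals. Of the triple-positive cells 5 were doublet calls (21.7%), against 3.88% of the cells with Flt3 and Dntt only. Without doublet calls, 18 triple-positive cells had Rag1 at 359.6 CPM, Ebf1 at 910.8 and Vpreb3 at 695.9, against 8.19, 8.19 and 0.697 CPM in 322 cells with Flt3 and Dntt only, so these 3 differences were as large. Kit was then at 51.4 CPM (interval 25.7 to 91.9) against 94.3 (interval 86.5 to 102.6), with intervals that overlapped. Also without doublet calls, 5.07% of Dntt-positive cells had Cd79a and 37.5% of Cd79a-positive cells had Dntt.

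Detection was then set against the amount of Dntt in cells thinned to 5000 UMIs. Flt3 was found in 8.05% of 7265 cells with 0 Dntt UMIs, in 57.0% of 93 cells with 1, and in 81.0% of 58 cells with 10 or more. Il7r was found in 0 of the 93 cells with 1 Dntt UMI, which allows a share of up to 3.89%, in 12.9% and 21.7% of the cells with 2 to 4 and with 5 to 9, and in 29 of the 58 cells with 10 or more. Rag1 was likewise found in 0 of 93 cells with 1 Dntt UMI and then in 6 of 70, 6 of 60 and 12 of 58 cells of the 3 higher bins (20.7% in the last). Ebf1 was found in 1.08% of the cells with 1 Dntt UMI and in 8 of 70, 6 of 60 and 14 of 58 cells above that. Cd79a was found in 1.08% of the cells with 1 Dntt UMI and in 7 of 70, 7 of 60 and 7 of 58 cells of the higher bins, so it differed little among these. Cd79b ran from 13.9% at 0 to 27.6% at 10 or more, with overlapping intervals for all bins above 0. Pax5 was found in 4 cells with 5 to 9 and 2 cells with 10 or more Dntt UMIs at this depth.

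**Figure D2:**
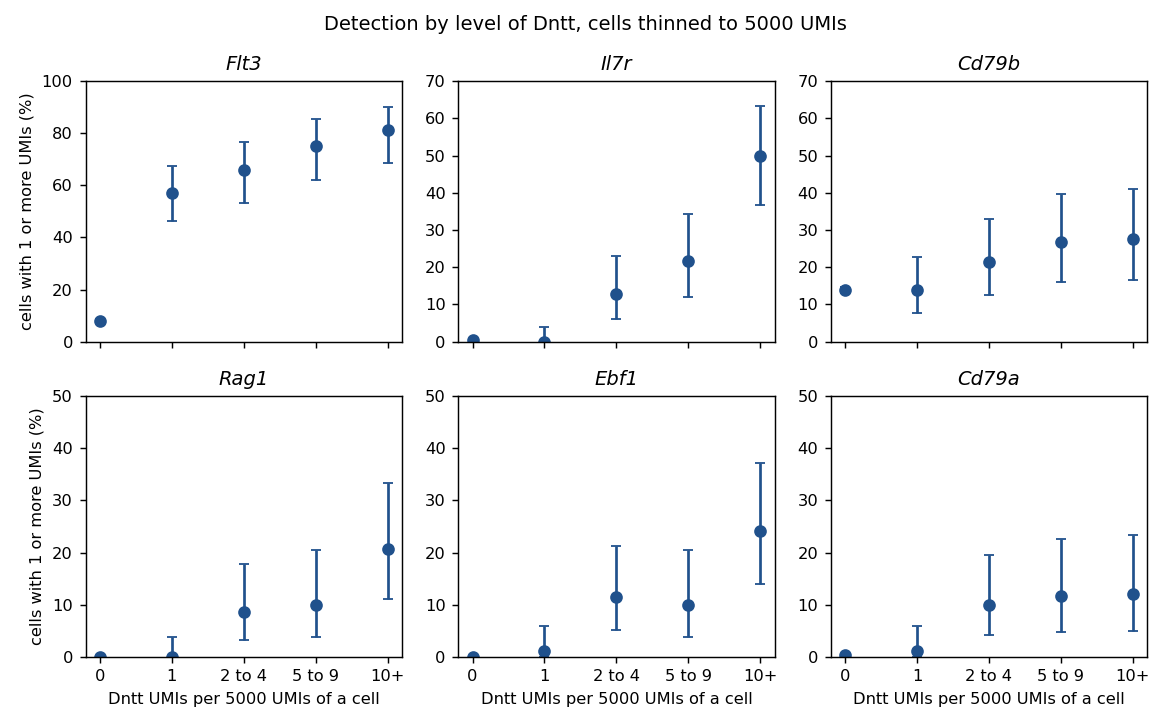
Share of cells with 1 or more UMIs of each gene (vertical axis, percent, scales differ between panels) by the number of Dntt UMIs after thinning to 5000 UMIs (horizontal axis; 7265, 93, 70, 60 and 58 cells); bars are exact 95% intervals. Flt3 is already at 57.0% with 1 Dntt UMI, where Il7r and Rag1 were found in no cell.

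Among Dntt-positive cells, Rag1 and Ebf1 were found together in 26 cells, Rag1 without Ebf1 in 16 and Ebf1 without Rag1 in 13, so neither was nested in the other. The cells with Rag1 but no Ebf1, 18 in the whole library, had a median of 31.5 Dntt UMIs, and of these 14 had Il7r, 2 had Cd79a and none had Pax5 or Vpreb3. The 21 cells with Ebf1 but no Rag1 differed from these, with a median of 1 Dntt UMI, 13 with Dntt, 6 with Cd79a, 5 with Vpreb3 and 2 with Pax5. Only 9 of the 21, against 15 of the 18, lay in the multipotent and lymphoid-primed progenitor-like cluster described below. Ebf1 was found in 0.534% of erythroid-like and 0.615% of all cells before thinning. The part of stray Ebf1 UMIs in the 21 cells was not tested. The 26 cells with both had a median of 18.5 Dntt UMIs, and 19 of them had Cd79a, 15 Vpreb3 and 10 Pax5. Of the 384 Dntt-positive cells with neither Rag1 nor Ebf1, only 2 had Cd79a, and the median was 2 Dntt UMIs. Cd79a and Ebf1 were close to nested, with 23 Dntt-positive cells holding both, 16 Ebf1 alone and 4 Cd79a alone. Il7r was held by 35 of the 42 Dntt- and Rag1-positive cells, and Vpreb3 and Cd79a shared 18 cells, with 5 and 9 cells holding only the former or the latter.

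The 12 Pax5-positive cells each held 6 to 9 of the 9 genes other than Cd79b. All had Ebf1, at 3 to 35 UMIs with a median of 15, Vpreb3 at 3 to 37 with a median of 18, and Cd79a at 3 to 23 with a median of 9. Of these cells, 11 had Dntt, 10 had Rag1, 10 had Vpreb1, 10 had Flt3, 8 had Il7r and 7 had Igll1. They held 81.2% of all Vpreb3, 61.0% of all Ebf1 and 54.1% of all Igll1 UMIs of the library. Cells with all 9 genes other than Cd79b numbered 2, and 6 more had 8 of the 9, whereas 6774 cells had none and 741 had 1.

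The 62 Cd79a-positive cells fell into 3 kinds. Of the 27 with Dntt, 21 had Rag1, 23 had Ebf1, 18 had Vpreb3 and 23 had Flt3. A further 19 without Dntt had 1000 or more UMIs of Igkc, the kappa light chain constant gene, and held no Rag1, Rag2, Pax5, Vpreb1, Igll1, Il7r or Flt3 UMI. Ighm was found in 13 of the 19, and Jchain, which encodes the joining chain of secreted antibody, stood at 20750 CPM. Of the remaining 16 cells, 14 held a single Cd79a UMI. The exceptions were a cell with 2, and a cell with 6 that also held 15 Ebf1, 3 Pax5, 20 Vpreb3, 8 Vpreb1 and 8 Igll1 UMIs but 0 Dntt. One cell stood between kinds, with 65 Dntt and 4 Cd79a UMIs beside 4750 of Igkc and 2401 of Ighm, and it was a doublet call. Without it, Ighm in the Dntt- and Cd79a-positive cells went from 6754 to 777.6 CPM.

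**Figure D3:**
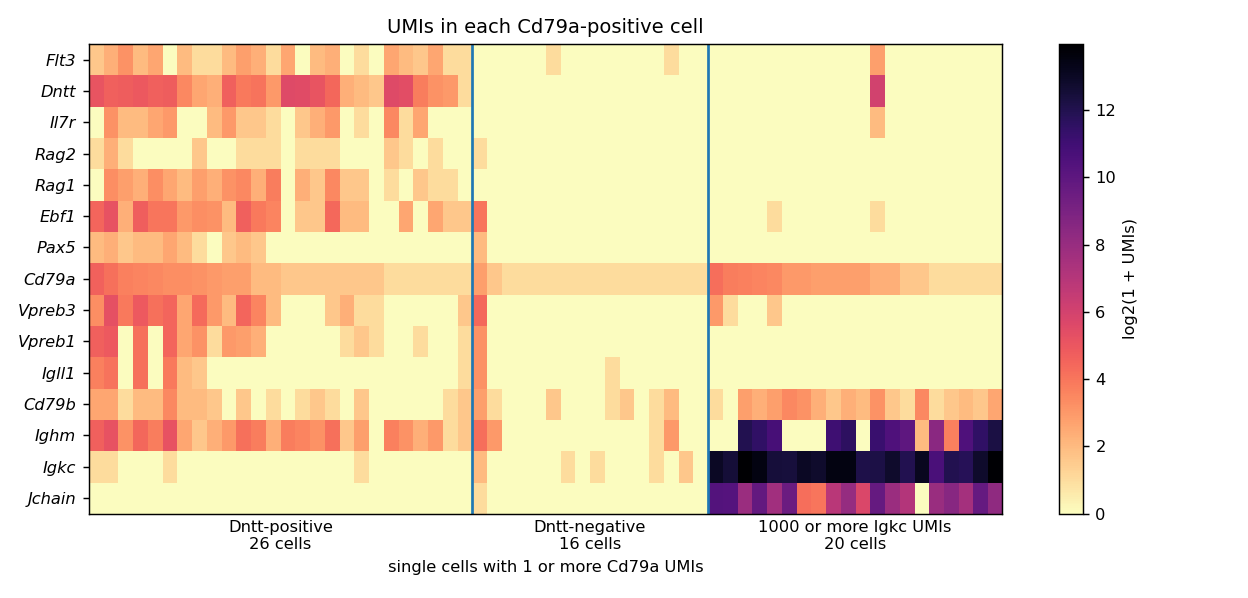
UMIs of each gene (rows, colour as log2(1 + UMIs)) in each of the 62 Cd79a-positive cells (columns), sorted within 3 groups by Cd79a UMIs: Dntt-positive, Dntt-negative, and 1000 or more Igkc UMIs whether or not Dntt was found. Early B genes fill the first group of 26 cells, 1 cell of the 16 in the second, and almost none of the 20 in the third, where Igkc and Jchain are high.

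Cell classes came from clusters built without the 10 genes and Flt3, although genes that vary with them stayed in, so positions in clusters are a description. Of the 439 Dntt-positive cells 270 (61.5%, interval 56.8 to 66.1) lay in the cluster called multipotent and lymphoid-primed progenitor-like from its markers, a cluster of 861 cells. Dntt was at 255.4 CPM there, 37.5 times its level in all other cells (interval 34.9 to 40.3). An unnamed cluster of 414 cells, led by Gm34680 and Cd7, was the next highest with a spread of cells, at 60.9 CPM, and 64 of its cells had Dntt. Those 64 cells had Flt3 at 183.4 CPM and Il7r at 55.5 CPM, beside 232.0 and 53.0 CPM in the 270 cells, but Kit at 29.0 CPM against 115.0. Their plasmacytoid dendritic markers summed to 1268 CPM against 509.7 (6 and 5 of 6 markers found), and their early B markers to 1157 against 633.1 (4 and 7 of 8 found). The plasmacytoid dendritic list was also the best match of the whole cluster, which did not pass the rules for a name. The part of these markers in the levels of the 64 cells was not tested. The unnamed cluster as a whole held 1 Rag1, 1 Ebf1 and 0 Cd79a UMIs, which for Cd79a has an upper bound of 0.481 CPM. It also held 46 Vpreb1, 17 Igll1, 10 Vpreb3 and 8 Rag2 UMIs. Vpreb1 was at 1.85 times (interval 1.34 to 2.51) and Igll1 at 2.76 times (1.55 to 4.61) the level in all other cells. The intervals for Vpreb3 (0.364 to 1.44) and Rag2 (0.576 to 2.79) covered equal levels. The 161.8 CPM of Dntt in the plasma cell-like class came from the 1 cell named above.

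Cd79b did not follow this pattern. Its level ran from 21.8 to 45.5 CPM over 12 of the 14 classes and unnamed clusters. It was at 211.6 CPM (interval 169.1 to 261.7) in plasma cell-like cells and at 1.25 CPM in erythroid-like cells, which was 0.0323 times the level in all other cells (interval 0.0236 to 0.0432). At 5000 UMIs 0.802% of erythroid-like cells had a Cd79b UMI, so its wide detection elsewhere in progenitor and myeloid-like classes was above that background. Among Dntt-positive cells Cd79b was at 138.6 CPM where Cd79a was found and at 34.4 CPM where it was not, a ratio of 4.02 (interval 2.96 to 5.40).

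**Figure D4:**
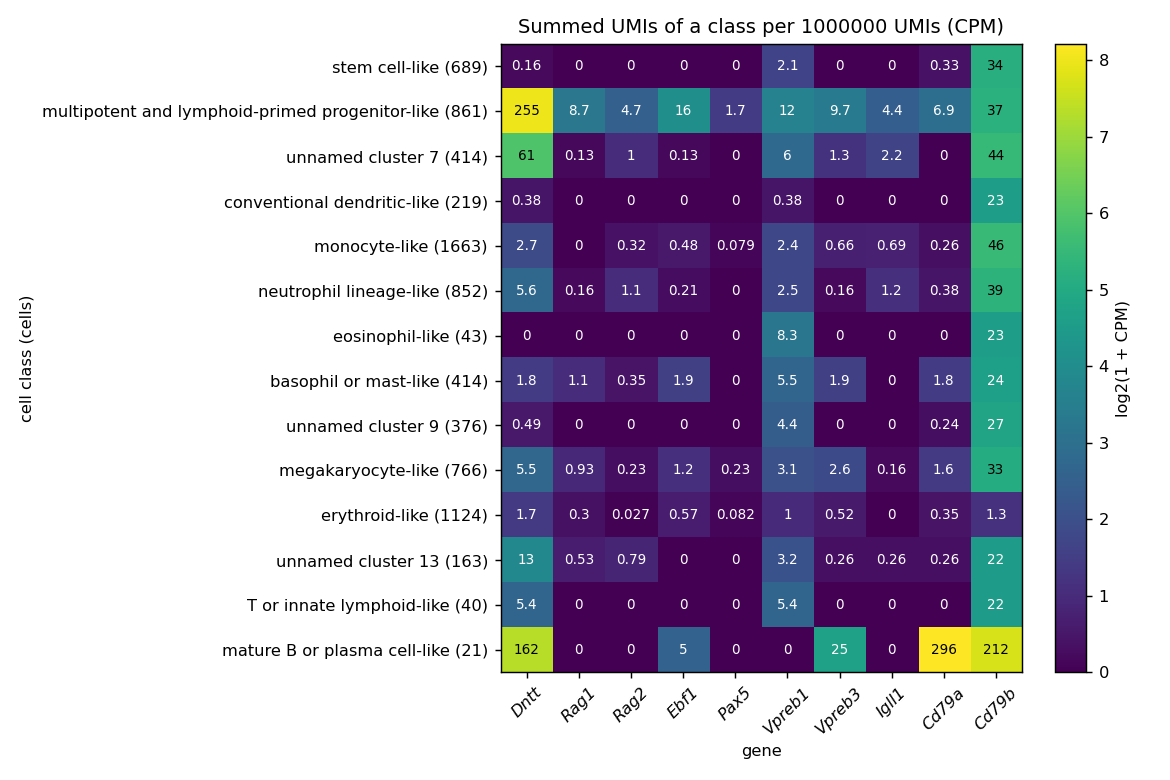
Level of each gene (columns) in each cell class (rows, number of cells in brackets), printed as CPM and coloured as log2(1 + CPM); the number of cells behind a value can be as low as 1, as for Dntt in the plasma cell-like class. Dntt, Rag1, Ebf1 and Pax5 are highest in the multipotent and lymphoid-primed progenitor-like row, while Cd79b has similar values in most rows and a low one in the erythroid-like row.

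Not all cells with early B transcripts lay in that cluster. Of the 27 cells with Dntt and Cd79a, 16 (59.3%, interval 38.8 to 77.6) were in it and none of these 16 was a doublet call, so the share was 76.2% of 21 cells without doublet calls. Leaving out the plasma cell-like cell, 10 lay among neutrophil, basophil, megakaryocyte, erythroid and monocyte-like cells or an unnamed cluster, and 5 of the 10 were doublet calls. Summed over the 10 cells, 3 of 4 eosinophil markers were found at 6741 CPM, against 0 of 4 and 0 CPM in the 16. The basophil or mast cell list came to 4326 CPM against 15.9 (5 and 2 of 6 markers found), and the neutrophil list to 8369 CPM against 243.9 (8 and 5 of 8 found). These sums were not spread over all 10 cells. The 11 cells with Dntt, Cd79a and Pax5, 8 of them in the cluster, had these 3 lists at 0, 31.9 and 244.6 CPM. Their megakaryocyte and erythroid lists were at 1170 and 1516 CPM, against 9.35 and 420.9 in the 8. The 10 cells also held early B genes, at lower summed levels than the 16, with Ebf1 at 270.4 against 1007 CPM, Dntt at 523.1 against 2232 and Rag1 at 188.1 against 392.3. Whether these 10 barcodes held more than 1 cell was not tested.

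To compare levels between cells with more and fewer of these genes, cells were put in 5 groups, a division set after the values had been seen. Group 0 had Flt3 but no Dntt, and group 1 had Dntt, both without Rag1, Ebf1, Cd79a or Pax5. Group 2 had Dntt with Rag1 or Ebf1 but no Cd79a or Pax5, group 3 had Dntt and Cd79a without Pax5, and group 4 had all of Dntt, Cd79a and Pax5. The values that follow are for the multipotent and lymphoid-primed progenitor-like cluster alone, in which groups 0 to 4 held 312, 228, 26, 8 and 8 cells. No cell of groups 2 to 4 there was a doublet call, and median depth was 17448.5, 15552.5, 11571.5, 8875 and 11815.5 UMIs. Dntt was at 625.1 CPM in group 1, 2858 in group 2, 2986 in group 3 and 1655 in group 4 (interval 1421 to 1918). The summed Dntt level with Pax5 was thus below those of groups 2 and 3. These are sums over few cells, and their intervals leave out the spread between single cells. Flt3 was at 117.1 CPM in group 0, 214.2 in group 1, 422.4 in group 2, 318.2 in group 3 and 233.8 in group 4 (interval 151.3 to 345.2). Its values in groups 2 and 4 had intervals that did not overlap. Kit went from 156.8 CPM in group 0 to 123.2 in group 1 and 59.0 in group 2, and was at 24.5 and 56.1 in groups 3 and 4 with wide intervals.

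Il7r was at 0.514, 19.8, 313.7, 306.0 and 271.2 CPM in groups 0 to 4, so nearly all of its difference lay between groups 1 and 2. Ly6d, a surface marker of B-biased lymphoid progenitors, was at 0.514, 47.3, 832.4, 1946 and 1328 CPM. Rag1 was at 161.5 CPM in group 2, 379.4 in group 3 and 402.2 in group 4, and the intervals of groups 3 and 4 overlapped. Ebf1 was at 142.9, 550.7 and 1356 CPM in these groups, with no overlap between the first and the others or between the last 2. Vpreb3 was at 0, 61.2 and 1281 CPM, and Vpreb1 at 43.5, 0 and 1057 CPM. Igll1 was found only in group 4 of groups 2 to 4, at 579.9 CPM in 5 of 8 cells, and a count of 0 UMIs in group 3 has an upper bound of 45.1 CPM. Pou2af1, a coactivator of immunoglobulin genes, was likewise at 0 in groups 0 to 3 and at 215.1 CPM in group 4, in 7 of 8 cells. Cd79b was at 38.7, 34.6, 37.3, 61.2 and 261.9 CPM, with an interval of 174.0 to 378.5 in group 4 above those of the other 4. Detection of the genes that define the groups is part of their definition, and cells with more of one gene are also more easily found to hold another.

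**Figure D5:**
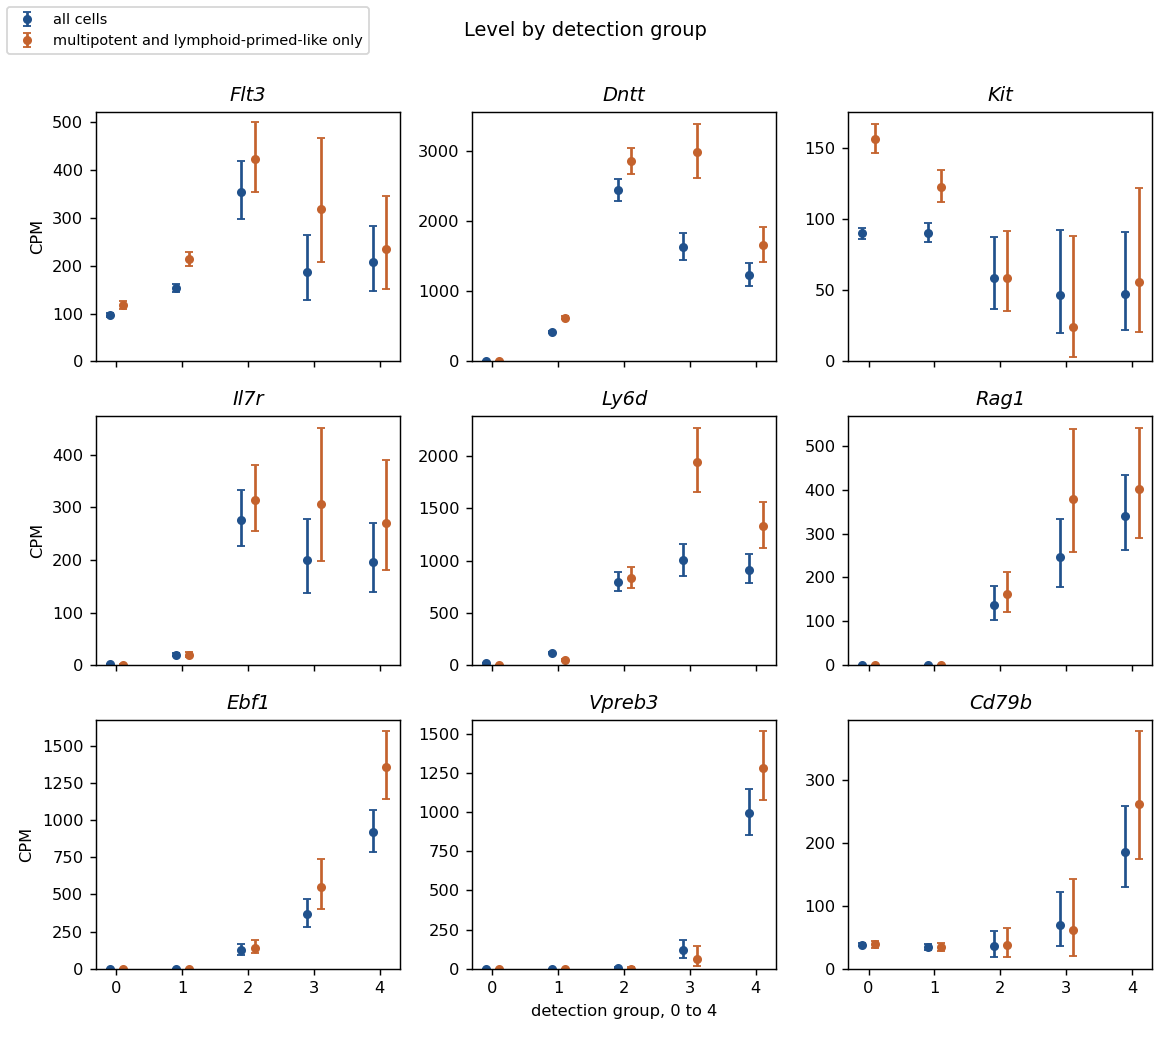
Level of 9 genes (CPM, separate scales) in detection groups 0 to 4, for all cells (blue) and for the multipotent and lymphoid-primed progenitor-like cluster alone (orange); bars are exact 95% Poisson intervals. Il7r steps up between groups 1 and 2, Dntt is lower in group 4 than in group 2, and Cd79b is flat up to group 2.

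The same gates were then set against all genes of the matrix. Between Dntt-positive and Dntt-negative cells, 8 of the 9 genes other than Dntt were at least 2-fold higher in the former, where 6.76% of 14881 genes with 20 or more UMIs were higher and 10.1% lower. Rag1 and Pax5 reached 20 UMIs only through the Dntt-positive cells, which fixed their side, so the count is no support and each ratio stands on its own. The ratios ran from 9.80 for Vpreb1 (interval 8.14 to 11.8) through 225.8 for Ebf1 (146.3 to 366.1) to 1390 for Rag1 (378.5 to 11570), and the exception was Cd79b at 1.36 (1.21 to 1.52). Within the Dntt-positive cells, the 8 genes other than the 2 gating genes were at least 2-fold higher in Cd79a-positive cells, where 6.09% of 10830 genes were higher and 11.5% lower. Here Pax5, Vpreb3 and Igll1 reached 20 UMIs only through the Cd79a-positive cells, so this count is no support either. Vpreb3 had 207 UMIs against 5, a ratio of 821 (346.2 to 2555), Igll1 65 against 2, a ratio of 644.5 (171.4 to 5434), and Rag2 7.28 times the level (3.99 to 12.7). Pax5 had 31 UMIs against 0, with a lower bound of 156.9-fold from the interval. With 3 UMIs put in place of the 0, the ratio would be 204.9. Both comparisons use cells of the same library, and the second lies within the first.

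Genes whose products work beside these 10 were counted in the same way. Of 11 partners that rejoin cut DNA or assist the RAG proteins, 1 was at least 2-fold higher in Dntt-positive cells, Xrcc6, which encodes the Ku70 end-binding protein, at 91.5 against 45.2 CPM (ratio 2.02, interval 1.87 to 2.18). That is near the 6.76% of all genes called higher, and the list's median ratio was 1.13 beside 1.01 over all genes. Within the Dntt-positive cells Xrcc6 was again 2.75 times higher with Cd79a (2.19 to 3.42), and in the progenitor-like cluster it stood at 78.8 CPM in group 1 and 372.7 CPM in group 2. Xrcc5, which encodes the Ku80 partner, had a ratio of 0.867 (0.718 to 1.04). Of the partners, 1 of 10 tested was called lower with Cd79a, Lig4, on 0 against 21 UMIs and an interval that reached 3.81.

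Of 9 kinases and signalling genes downstream of the receptor, 1 was at least 2-fold higher in Dntt-positive cells, again near the 6.76% of all genes. It was the B lineage kinase gene Blk, with 46 UMIs against 5 (ratio 159.8, interval 63.8 to 515.4). Blk reached 20 UMIs only through the Dntt-positive cells, which fixed its side, so this count is no support. Among Dntt-positive cells Blk was 16.7 times higher with Cd79a (8.87 to 31.0). Syk, Btk and Lyn, which have wide roles in blood cells, had ratios of 1.49, 1.15 and 1.02 in the first comparison, and the list's median was 1.20. Bcl6 was called lower with Cd79a on 0 against 21 UMIs, with an interval up to 3.81. Of 17 early B genes, 15 could be tested in the first comparison, and 9 were at least 2-fold higher and 2 lower, beside 6.76% and 10.1% of all genes. The former included Ly6d at 34.3 times (31.5 to 37.4), Blnk, an adaptor of the receptor pathway, at 25.8 times (19.7 to 33.9), and Il7r at 20.4 times (17.4 to 24.0). They also included weaker calls. Ighm was at 2.25 times, with 2401 of its 5022 UMIs in the 1 doublet call with 4750 Igkc UMIs. Another of the higher genes had 8 UMIs against 61 and an interval of 0.941 to 4.78. The 2 lower were Irf4, with 1 UMI against 48 and an interval of 0.00898 to 2.12, and Ikzf3, with 0 against 83. Tcf3, which encodes E2A, was at a ratio of 0.985 (0.903 to 1.07). In the second comparison 9 of 11 tested were higher and none lower, beside 6.09% and 11.5% of all genes. Genes that pass the UMI floor only through the group where they are high, such as Vpreb2 with 67 UMIs against 1 in the first comparison, are among these.

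For the 9 genes found in 20 or more cells, which leaves out Pax5, the most alike genes over single cells were ranked by Pearson correlation of log(1 + UMIs per 10000), over 7645 cells of 1 library that differ in depth. Dntt was most like Arpp21 (r = 0.685), then Cmah (0.614) and Flt3 (0.531). Ebf1 was most like Vpreb2 (0.803), Vpreb3 (0.782) and Rag1 (0.770). Cd79a was most like Mzb1 (0.756), a secretory pathway gene of antibody-producing cells, then Vpreb3 (0.741) and Pou2af1 (0.677). The highest value for Rag2 was 0.383 with Ebf1, and for Cd79b 0.256 with Cmtm7, which in such sparse counts is no likeness to be relied on.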

How the data were processed

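Single-cell RNA-seq was analysed from 1 library (10x 3' chemistry). UMI counts per gene and barcode were deposited by the authors as Cell Ranger (6.0.2 in the submitters' processing notes) wrote them, on mm10 and before any filter of theirs on cells. The study's filter was then applied, with UMIs between 1000 and 50000, genes between 1000 and 6500 and a mitochondrial share below 7%. A cell was positive with 1 or more UMIs. Doublets were called with Scrublet (scanpy 1.11.5, expected rate 6%) and kept. Clusters came from Seurat 5.3.0 and sctransform 0.4.2 in R 4.3.3 (3000 variable genes, 50 components, resolution 0.8, seed 1), with the 10 genes and Flt3 left out, and were named from 13 marker lists.

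Shares have Clopper-Pearson, summed counts Poisson and ratios conditional binomial intervals (scipy 1.17.1). Ratios used genes with 20 or more UMIs and were tested on simulated data. For shares by depth, cells were thinned to 5000 UMIs, leaving out 99 shallower cells. For a count of 0, shares and levels use the interval's upper bound, or 3 counts where stated for a fold or level. Coordinates are from GENCODE M21, and the gene models behind the counts may differ. Named genes were all 10 genes, Flt3, the 3 genes most correlated with each, and 3 pathway lists. Values named outside that rule (Kit, Igkc, Jchain, Cd7, Gm34680) were chosen after values were seen. The genes and lists were chosen with earlier results of these data known. The result of 1 gene of these lists is not reported here. Alternatives were a cut of 2 UMIs, thinning, removal of doublet calls, a stricter filter (at least 5000 UMIs and under 5% mitochondrial), all barcodes, other library sums, no floor and other clusterings.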

Additional observations from a re-analysis of the deposited data

Results flagged for a closer look

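A Dntt signal was also present outside the cells compared above. Of the 1172 barcodes that the cell filter removed, 27 had a Dntt UMI (2.304%, exact interval 1.524 to 3.334), against 5.742% of the cells kept. These 27 barcodes held 198 Dntt UMIs, and 2 of them also had Cd79a. Of the 27, 14 failed the limit on mitochondrial share, 13 an upper limit and 2 a lower limit, with some failing more than 1 limit. Removed barcodes had a median of 2951.5 UMIs. The result was singled out because these barcodes enter none of the comparisons above and the share lies above the 0.256% that 3 positive barcodes would give. They enter only the values recomputed over all barcodes.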

How the results depend on the processing

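Of 65 values recomputed under another setting, 54 stayed within the exact interval of the value given (or, for counts of genes, within 1.5 times it) and 11 did not. Intervals over few cells are wide, so that 76.2% in place of 59.3% of the cells with Dntt and Cd79a in 1 cluster, without doublet calls, and 53.7% in place of 43.5% of Cd79a-positive cells with Dntt, after thinning, are among the 54. The share of Cd79a-positive cells with Dntt (43.5%) was 56.8% with at least 2 UMIs of each gene and 61.9% without cells of 1000 or more Igkc UMIs. The share of Dntt-positive cells with Flt3 (81.5%) was 68.0% after thinning to 5000 UMIs. The share of Flt3-positive cells with Dntt (22.6%) was 25.9% with at least 2 UMIs, and that of Cd79a-positive cells with Flt3 (40.3%) was 57.1% without the Igkc cells. Within the multipotent and lymphoid-primed progenitor-like cluster alone, 84.2% of 19 Cd79a-positive cells had Dntt and 84.2% had Flt3, 93.0% of Dntt-positive cells had Flt3, and 44.3% and 2.83% of Flt3-positive cells had Dntt and Cd79a. After thinning, 5 of 5 genes tested, in place of 8 of 8, were at least 2-fold higher with Cd79a, beside 6.46% of all genes. Rag2, Pax5 and Igll1 then fell below 20 UMIs. As said above for the count of 8, such a count is no support. The Igkc and cluster settings were chosen after seeing the data. With 1 library no replicate could be left out, the depth behind a cell limits detection of rare transcripts, and the intervals leave out variation between mice and libraries. No paired analysis was possible because there is 1 library.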
